A study of Homo sapiens with 8 samples.

Results

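Genes of the lysosome, of the vacuolar proton pump (V-ATPase) and of autophagy were followed in 2 acute myeloid leukaemia cell lines treated with an inhibitor of the histone demethylase LSD1. The members were 39 genes listed by function, chosen with earlier results of these data known. Shares of members called are therefore not independent of these data. A member counted when the table held a row under its name with at least 10 reads in some library. That left 38 of the 33045 gene names in the table: 3 transcription factors, 15 hydrolases and hydrolase activators, 7 membrane proteins, 8 pump subunits and 5 autophagy genes. GABARAPL1 was not analysed here. ACP5, the tartrate-resistant acid phosphatase, had at most 11 reads in any library and did not pass the low-count filter, so 37 members were tested.

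KASUMI-1 is a line with the RUNX1::RUNX1T1 fusion, named sensitive to LSD1 inhibition by the study, and THP-1 is a monocytic line with a KMT2A fusion, named resistant. Cells received DDP38003 at 0.5 µM (called LSD1i) or vehicle, for 6 and 72 h in KASUMI-1 and for 24 and 72 h in THP-1. Each combination of line, agent and time was 1 library, with no further allele or agent in the labels. The study picked these times because its mTOR readout moved at them, mTOR being a growth kinase that sits on the lysosome. No label states that each library had its own culture. The p-values below therefore measure the spread between these libraries, which may be technical. With 1 library per combination, the times of a line served as its repeats. That spread thus includes any change between times, of the response or, in the fit of vehicle libraries, of the level.

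The lysosome is the acidic compartment in which cells break down proteins, lipids, sugars and nucleic acids. The V-ATPase, a membrane-bound V0 ring with a cytosolic V1 motor, pumps the protons that keep its hydrolases active, and autophagy delivers cytoplasm to it in double-membraned vesicles. MITF, TFEB and TFE3 are related bHLH-zipper factors that bind E-boxes of the core CACGTG, and TFEB is known for binding an extended form of it in many lysosomal genes. TFEB and TFE3 are held in the cytoplasm by mTOR at the lysosome, so their activity is set largely by location and not by transcript level. Macrophages and monocytes carry large amounts of these gene products.

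The start-site windows of the members show where that E-box lies and are given first because the factors and their possible targets are both among the members. RefSeq start sites of GRCh38.p14 were matched for 28 of the 38 members, and 250 bases upstream of each start were searched for CACGTG, for TCACGTGA and for TCACGTGA with a G before and a C after it. The longer forms contain the shorter, and each reads the same on the opposite strand. CACGTG was present in 6 of the 28 windows (21.4%; LAMP1, GAA, NEU1, MCOLN1, ATP6V0D1 and CLN3), against 6.49% of 27305 windows of all genes. TCACGTGA was present in 4 of 28 (14.3%), against 0.890%, and the longest form in 2 of 28 (7.14%), against 0.330%. The first window printed here is that of CLN3, the only called member (below) with a matched window that held the core upstream. The called members PSAP and ASAH1 had no matched window, and 1 window per gene was searched. Also printed, and chosen after the values were seen, are the windows of GAA and MCOLN1, which hold the longest form, and of LAMP1, which holds the most copies. Capitals mark the motif letters, all sequences run 5′ to 3′ on the strand of the gene, and each ends at the base before the start site.
CLN3 (chr16:28492075-28492324, minus strand): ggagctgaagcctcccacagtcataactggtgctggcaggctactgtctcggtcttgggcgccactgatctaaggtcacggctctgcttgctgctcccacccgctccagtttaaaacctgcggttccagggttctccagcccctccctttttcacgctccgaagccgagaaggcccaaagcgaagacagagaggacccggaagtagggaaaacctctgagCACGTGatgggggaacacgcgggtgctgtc
GAA (chr17:80101331-80101580, plus strand): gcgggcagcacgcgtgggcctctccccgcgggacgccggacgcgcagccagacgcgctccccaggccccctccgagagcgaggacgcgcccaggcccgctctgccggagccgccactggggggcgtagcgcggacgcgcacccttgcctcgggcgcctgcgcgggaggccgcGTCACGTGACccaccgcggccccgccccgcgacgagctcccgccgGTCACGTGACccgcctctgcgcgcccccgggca
MCOLN1 (chr19:7522374-7522623, plus strand): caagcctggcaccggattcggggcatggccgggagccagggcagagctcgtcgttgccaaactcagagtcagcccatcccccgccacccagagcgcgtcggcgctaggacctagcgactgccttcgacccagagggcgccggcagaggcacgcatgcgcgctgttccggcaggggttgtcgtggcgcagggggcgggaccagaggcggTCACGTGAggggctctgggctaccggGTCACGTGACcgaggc
LAMP1 (chr13:113296989-113297238, plus strand): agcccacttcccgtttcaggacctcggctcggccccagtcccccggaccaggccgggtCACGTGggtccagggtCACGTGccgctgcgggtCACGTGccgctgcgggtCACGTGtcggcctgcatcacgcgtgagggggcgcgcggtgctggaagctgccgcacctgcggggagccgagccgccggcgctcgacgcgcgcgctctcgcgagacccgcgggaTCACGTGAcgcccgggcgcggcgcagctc
In CLN3 the core began 30 bases before the start. The copies in GAA began 76 and 31 bases before it, those in MCOLN1 41 and 14 bases, and the 5 in LAMP1 192, 176, 159, 142 and 28 bases. A match describes these letters only and is not a measured binding site.

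Counted reads per library ranged from 23722972 (KASUMI-1 vehicle at 72 h) to 45970766 (KASUMI-1 LSD1i at 72 h), so that both extremes lay in 1 pair. Levels below are RPKM, reads scaled to exon length and to TMM-scaled library size, so that genes can be set side by side. The lines matched their labels: 6 KASUMI-1 markers summed to 7472 to 10675 CPM (reads scaled to library size alone) in KASUMI-1 and to 109 to 130 CPM in THP-1. MPO made up 6283 of the 7472 CPM, and CD33, which is on both lists, was higher in THP-1, while the other 5 were lower there. All 7 THP-1 markers were higher in THP-1 vehicle than in KASUMI-1 vehicle. RUNX1T1, the fusion partner, was at 76.2 to 106 CPM in KASUMI-1 and at most 0.201 CPM in THP-1. Values after ± are approximate standard errors, obtained as the fitted log2 change over the root of its F value, and each call below is an adjusted p under 0.05 in edgeR's quasi-likelihood test over 16060 genes.

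The first comparison was the inhibitor against vehicle in THP-1. Among the 37 members 9 rose (MITF, FUCA1, MAN2B1, PSAP, TFEB, CLN3, GM2A, WIPI1 and ASAH1), where 6.51% of all genes tested rose. None fell by edgeR's test, where 2.85% of all genes fell; at an unadjusted p under 0.05 (19.8% of all genes, both directions) there were 12 higher and 0 lower members, and DESeq2 called 6 higher and 0 lower. The median log2 change of the 37 members was 0.17, against -0.01 over all genes, and 28 of 37 were above 0. In 17 of the 35 members with at least 2 CPM in both pairs, both LSD1i libraries lay above both vehicle libraries, a pattern shown by 22.9% of all genes, and in 2 both lay below (21.7% of all genes). Monocyte and macrophage genes moved in the same libraries. Of 18 such markers 14 were tested and 8 rose (CD14, CD163, CD36, CD86, CSF1R, ITGAM, LYZ and MARCO), and their summed level was 1078 and 713 CPM in vehicle (24 and 72 h) and 5187 and 11430 CPM with LSD1i. LYZ alone made up 11086 CPM of the last value, while MRC1 and C1QB had 0 reads in every THP-1 library. Their part in the member changes was not tested. In these bulk libraries more cells of a mature kind and more RNA per cell cannot be told apart.

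**Figure D1:**
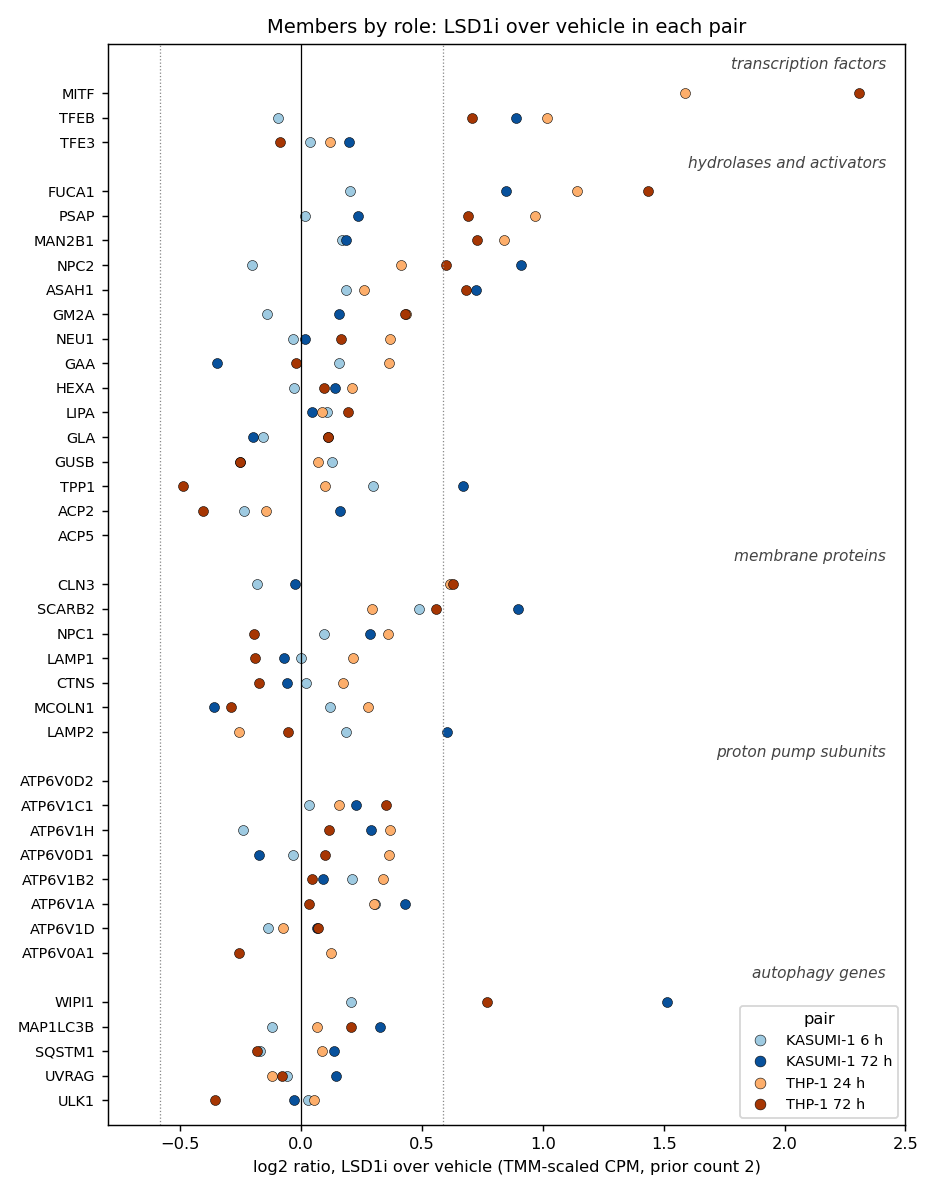
Log2 ratio of LSD1i over vehicle for each member (rows, grouped by role) in each of the 4 pairs (1 library per agent); points are drawn where the pair's mean is at least 2 CPM, and dotted lines mark 1.5-fold. MITF and FUCA1 lie farthest right in THP-1, WIPI1 in KASUMI-1 at 72 h, and the points drawn for pump subunits stay between the dotted lines. ATP6V0D2 and, in KASUMI-1, ATP6V0A1 were under 2 CPM and are not drawn.

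Of the transcription factors, MITF, the family member best known from melanocytes, osteoclasts and mast cells, was at 0.459 and 0.358 RPKM in THP-1 vehicle at 24 and 72 h and at 1.40 and 1.81 RPKM with LSD1i. The LSD1i libraries lay far above the vehicle libraries at both times. The read counts behind these levels were 129 and 89 in vehicle and 369 and 378 with LSD1i. MITF rose by 1.96 ± 0.23 on the log2 scale (3.89-fold, adjusted p = 1.09e-05, edgeR's quasi-likelihood test). The gene lies at chr3:69871276-70100177 of NCBI36 on the plus strand, and gene-level counts do not separate its several start sites and isoforms. TFEB, the factor most closely tied to lysosomal genes, was at 3.77 and 2.93 RPKM in vehicle and 7.63 and 4.79 RPKM with LSD1i. Its groups did not overlap, and it rose by 0.87 ± 0.17 (1.82-fold, adjusted p = 0.00256, edgeR), with chr6:41759694-41811975, minus strand, as its NCBI36 position. TFE3, the third factor, stayed between 4.97 and 5.41 RPKM in the 4 THP-1 libraries, and its value was 0.02 ± 0.15 (adjusted p = 0.977, edgeR). The groups overlapped.

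Of 14 tested hydrolases and activators 5 rose in THP-1. FUCA1, the alpha-fucosidase that trims fucose from glycoproteins, was at 6.00 and 5.83 RPKM in vehicle and at 13.3 and 15.8 RPKM with LSD1i, a clear gap at both times. It rose by 1.29 ± 0.17 (2.44-fold, adjusted p = 3.18e-05, edgeR). PSAP encodes prosaposin, the precursor of the saposins that present sphingolipids to their hydrolases, and was the most abundant member in every KASUMI-1 library and, with LSD1i, in THP-1, where vehicle held about as much ATP6V1B2. In THP-1 it went from 100.04 and 102 RPKM in vehicle to 195 and 165 RPKM with LSD1i, a rise of 0.83 ± 0.14 (adjusted p = 0.000663, edgeR). The alpha-mannosidase MAN2B1 went from 31.8 and 41.8 to 56.9 and 69.1 RPKM, a rise of 0.78 ± 0.13 (adjusted p = 0.000347, edgeR). Groups of FUCA1, PSAP and MAN2B1 thus did not overlap in THP-1. Their NCBI36 positions are chr1:24044161-24067408 (FUCA1), chr10:73246061-73281132 (PSAP) and chr19:12618322-12638828 (MAN2B1), all on the minus strand.

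Smaller rises were those of GM2A and ASAH1. GM2A, the activator that lifts GM2 ganglioside to hexosaminidase, went from 20.7 and 18.9 to 28.0 and 25.4 RPKM, 0.43 ± 0.13 on the log2 scale (adjusted p = 0.0352, edgeR). The acid ceramidase ASAH1 was at 49.0 and 35.4 RPKM in vehicle and 58.7 and 56.8 RPKM with LSD1i, 0.47 ± 0.15 (adjusted p = 0.0495, edgeR). For both genes the LSD1i libraries lay above the vehicle libraries, in ASAH1 with vehicle libraries that differed more between the times than at 24 h between the agents. NPC2, the cholesterol carrier of the lysosome lumen, missed the threshold at 0.51 ± 0.18 (adjusted p = 0.0948, edgeR), with 76.9 and 85.5 RPKM in vehicle and 102 and 130 RPKM with LSD1i. The hydrolases HEXA, GAA, GLA, GUSB, NEU1, LIPA, TPP1 and ACP2 did not pass, with values from -0.28 (ACP2) to 0.27 (NEU1). GLA, the alpha-galactosidase, was at 73.1 and 64.1 RPKM in vehicle and 78.9 and 69.4 RPKM with LSD1i, so that its times differed more than its agents. ACP5 had 3 reads in each THP-1 vehicle library and 0 reads in each THP-1 LSD1i library, and in KASUMI-1 it had 0 reads in vehicle and 1 and 11 reads with LSD1i. No fold is given for it, since its mean was under 2 CPM in every pair.

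Of 7 membrane proteins CLN3 alone rose in THP-1. CLN3, the lysosomal membrane protein lost in juvenile Batten disease, was at 6.76 and 7.28 RPKM in vehicle and 10.4 and 11.3 RPKM with LSD1i, with groups well apart. It rose by 0.62 ± 0.14 (1.54-fold, adjusted p = 0.00809, edgeR), and it lies at chr16:28396101-28411124 of NCBI36 on the minus strand. SCARB2 (LIMP-2, which carries glucocerebrosidase to the lysosome) was just beyond the threshold at 0.43 ± 0.13 (adjusted p = 0.0505, edgeR), with 17.9 and 15.6 RPKM in vehicle and 21.9 and 23.1 RPKM with LSD1i. LAMP1 and LAMP2, the main glycoproteins of the lysosomal membrane, showed no call. LAMP1 was at 17.9 and 21.3 RPKM in vehicle and 20.8 and 18.7 RPKM with LSD1i, and its groups overlapped (0.01 ± 0.13). LAMP2 was at 69.4 and 59.9 RPKM in vehicle and 58.1 and 57.6 RPKM with LSD1i (-0.16 ± 0.14), with both LSD1i libraries below both vehicle libraries. The calcium channel MCOLN1, whose window holds the longest motif form, was at 2.80 and 2.85 RPKM in vehicle and 3.40 and 2.32 RPKM with LSD1i (0.00 ± 0.20), higher at 24 h and lower at 72 h. NPC1, the cholesterol exporter, and CTNS, the cystine exporter, were not called either.

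None of the 8 pump subunits passed the edgeR test in THP-1 or in KASUMI-1, where 6.51% and 7.02% of all genes rose, so that 0 of 8 is near the background. At an unadjusted p under 0.05 the count was 0 in THP-1 (19.8% of all genes) and 1 in KASUMI-1 (ATP6V1A; 27.0%), and DESeq2 called 0 in both. ATP6V1A, the catalytic A subunit of V1, was at 19.0 and 16.0 RPKM in THP-1 vehicle and 23.4 and 16.4 RPKM with LSD1i (0.17 ± 0.12). In KASUMI-1 it was at 17.2 and 13.5 RPKM in vehicle and 21.3 and 18.2 RPKM with LSD1i (0.37 ± 0.12, adjusted p = 0.0611, edgeR), so that both LSD1i libraries lay above both vehicle libraries there. ATP6V0D2, the d subunit variant of osteoclasts and macrophages, had 4 and 17 reads in THP-1 vehicle (24 and 72 h) and 24 and 12 reads with LSD1i. Its reads were higher with LSD1i at 24 h (log2 ratio 2.19, counting interval 1.13 to 4.66) and not at 72 h. With a mean of 0.310 CPM at 24 h, under the 2 CPM asked of single pairs, that ratio is rough and was not counted. In KASUMI-1 it had 5 and 9 reads in vehicle and 14 and 12 reads with LSD1i. The fitted values were 0.96 ± 0.59 in THP-1 and 0.42 ± 0.67 in KASUMI-1, neither of which passed.

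Among the autophagy genes WIPI1 was the sole call. WIPI1 binds the phosphoinositide made at the forming autophagosome. It was at 0.547 and 1.27 RPKM in THP-1 vehicle and 1.16 and 2.19 RPKM with LSD1i, higher with LSD1i at each time although the 24 h LSD1i library lay below the 72 h vehicle library. The rise was 0.92 ± 0.28 (adjusted p = 0.0482, edgeR). The cargo receptor SQSTM1 (p62) was at 23.5 and 25.1 RPKM in vehicle and 25.0 and 22.1 RPKM with LSD1i. MAP1LC3B, which encodes the autophagosome protein LC3B, was at 10.8 and 13.8 RPKM in vehicle and 11.3 and 16.0 RPKM with LSD1i. ULK1, the kinase that starts autophagy, was at 1.65 and 2.36 RPKM in vehicle and 1.71 and 1.84 RPKM with LSD1i, and UVRAG, a partner of the class III lipid kinase, at 9.86 and 11.4 RPKM and at 9.07 and 10.8 RPKM. In all of these the groups overlapped, and the fitted values ran from -0.15 (ULK1) to 0.14 (MAP1LC3B).

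The THP-1 calls leaned on having both pairs and a term for them. With no term for the pairs 1 member passed (FUCA1), where the rises over all genes tested went from 1046 to 381. Most of the calls ended when either THP-1 pair was left out, and rises over all genes became fewer too. Each such fit leaves 1 THP-1 library per agent, so only sizes are given. Without the 24 h and without the 72 h pair MITF rose by 2.31 and 1.59, and FUCA1 by 1.41 and 1.13. MAN2B1 rose by 0.70 and 0.83, PSAP by 0.67 and 0.95, and ASAH1 by 0.66 and 0.25.

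**Figure D2:**
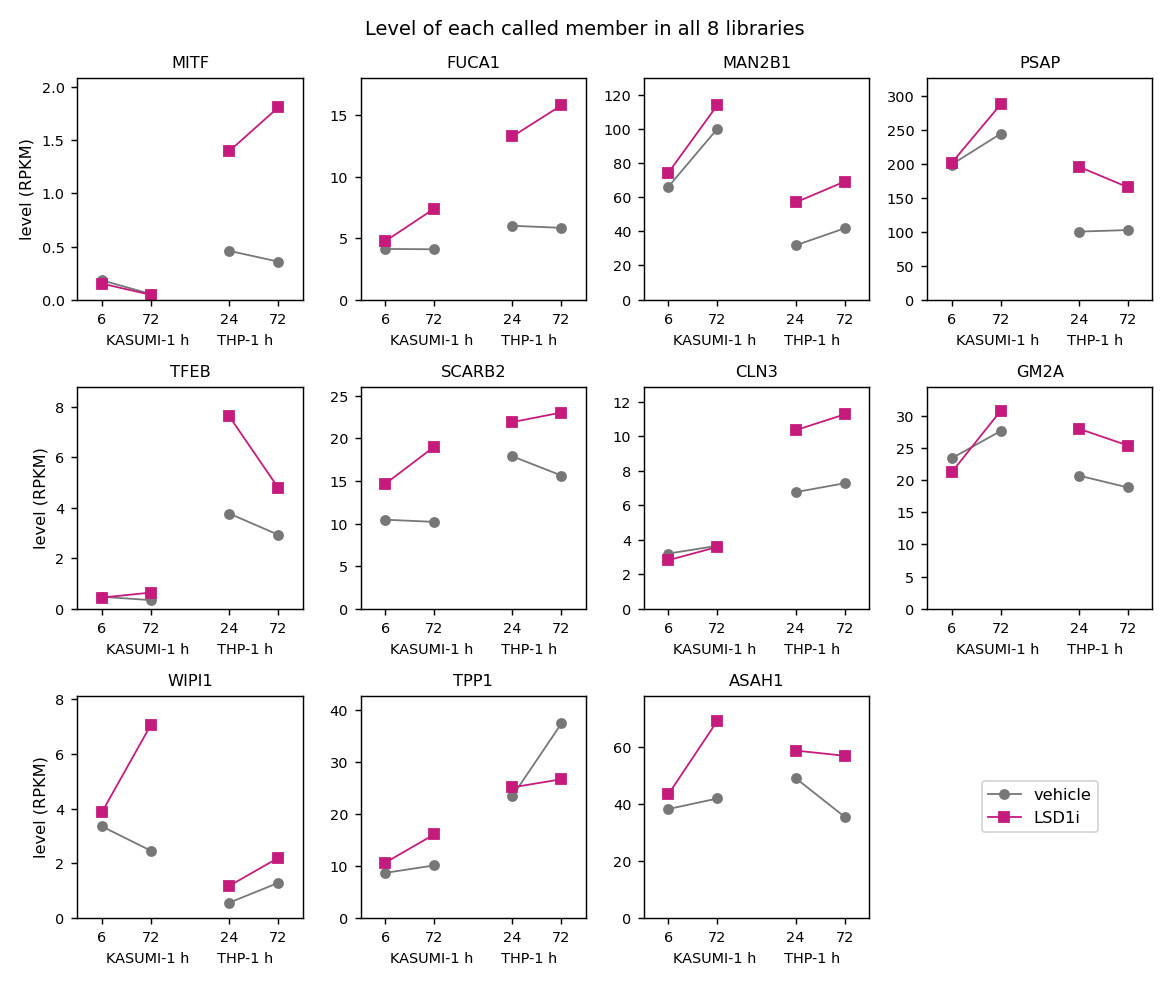
Level (RPKM, linear axes from 0) of the 11 members that rose in THP-1 or KASUMI-1, in all 8 libraries, with vehicle in grey and LSD1i in magenta and lines joining the times of a line. MITF, FUCA1, MAN2B1, PSAP, TFEB and CLN3 show a gap between the agents at both THP-1 times, and in KASUMI-1 the gap of WIPI1 and TPP1 is wider at 72 h than at 6 h.

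The second comparison was the same contrast in KASUMI-1. Of the 37 members 3 rose (SCARB2, WIPI1 and TPP1), against 7.02% of all genes tested, so that the share of members was close to the background. None fell by edgeR's test, against 5.09% of all genes; at an unadjusted p under 0.05 (27.0% of all genes, both directions) the count was 7 higher and 0 lower, and DESeq2 called 1 higher (SCARB2) and 0 lower. The median log2 change of the members was 0.07, against 0.02 over all genes. Both LSD1i libraries lay above both vehicle libraries in 7 of 34 members (24.8% of all genes) and below them in 2 (23.8% of all genes). Of the monocyte and macrophage markers 4 of 14 tested rose (CD86, CSF1R, ITGAM and LYZ), 0 fell, and 10 had fitted values above 0. The summed level of the list was 98.6 and 96.4 CPM in vehicle and 231 and 518 CPM with LSD1i (6 and 72 h). LYZ alone made up 29.6 and 38.1 CPM in vehicle and 136 and 415 CPM with LSD1i. MRC1 and C1QC had 0 reads in every KASUMI-1 library. The part of these genes in the member changes was not tested.

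SCARB2 was at 10.5 and 10.2 RPKM in KASUMI-1 vehicle (6 and 72 h) and 14.7 and 19.0 RPKM with LSD1i, above vehicle at both times. It rose by 0.69 ± 0.13 (1.62-fold, adjusted p = 0.00352, edgeR), at chr4:77298918-77354059 of NCBI36, minus strand. WIPI1 was at 3.34 and 2.45 RPKM in vehicle and 3.86 and 7.07 RPKM with LSD1i, a small gap at 6 h and a large one at 72 h. Its rise was 0.84 ± 0.25 (adjusted p = 0.0361, edgeR), at chr17:63929018-63965248, minus strand. The tripeptidyl peptidase TPP1 was at 8.60 and 10.04 RPKM in vehicle and 10.6 and 16.0 RPKM with LSD1i, and rose by 0.48 ± 0.15 (adjusted p = 0.0426, edgeR), at chr11:6590573-6597268, minus strand. Its LSD1i library at 6 h was only slightly above the 72 h vehicle library.

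These 3 calls rested on the 72 h pair, which joined the library of fewest reads (vehicle) to that of most reads (LSD1i). Without it the calls ended, and rises over all genes became fewer too. Without the 6 h pair more members passed, as did more of all genes. Each such fit leaves 1 KASUMI-1 library per agent, so only sizes are given. Without the 72 h and without the 6 h pair SCARB2 was at 0.48 and 0.91, WIPI1 at 0.20 and 1.53 and TPP1 at 0.29 and 0.68. With no pair term 0 members passed, where the rises over all genes tested went from 1128 to 96. Without either THP-1 pair, whose libraries share the estimate of spread, SCARB2 alone kept its call, and rises over all genes were again fewer.

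The transcription factors were low in KASUMI-1. MITF was at 0.182 and 0.0528 RPKM in vehicle and 0.151 and 0.0454 RPKM with LSD1i, with 7 to 41 reads per library, and its value was -0.26 ± 0.37. TFEB was at 0.470 and 0.337 RPKM in vehicle and 0.439 and 0.636 RPKM with LSD1i (0.36 ± 0.24, adjusted p = 0.362, edgeR), higher at 72 h only. TFE3 was at 3.78 and 3.25 RPKM in vehicle and 3.88 and 3.73 RPKM with LSD1i, where the groups overlapped. Among the other members LAMP2 was at 37.2 and 23.8 RPKM in vehicle and 42.2 and 36.1 RPKM with LSD1i (0.39 ± 0.14, adjusted p = 0.0688, edgeR), higher with LSD1i at each time. LAMP1 was at 22.6 and 24.8 RPKM in vehicle and 22.6 and 23.6 RPKM with LSD1i, and MCOLN1 at 2.57 and 3.84 RPKM and at 2.79 and 2.98 RPKM, with overlap in both genes. Of the genes that rose in THP-1, PSAP was at 199 and 244 RPKM in vehicle and 201 and 287 RPKM with LSD1i (0.13 ± 0.14), MAN2B1 at 66.1 and 100.05 RPKM and at 74.3 and 114 RPKM (0.18 ± 0.12), and in both the times differed more than the agents. FUCA1 was at 4.12 and 4.09 RPKM in vehicle and 4.74 and 7.39 RPKM with LSD1i, with no overlap, and missed the threshold at 0.52 ± 0.17 (adjusted p = 0.0601, edgeR). ASAH1 was at 38.1 and 41.8 RPKM in vehicle and 43.3 and 69.1 RPKM with LSD1i and also missed it (0.45 ± 0.15, adjusted p = 0.0508, edgeR). CLN3 at 2.81 to 3.65 RPKM (-0.11 ± 0.16) and GM2A at 21.2 to 30.8 RPKM (0.01 ± 0.13) had overlapping groups. So did SQSTM1 (23.6 to 31.0 RPKM), MAP1LC3B (13.3 to 16.7), ULK1 (2.97 to 3.54) and UVRAG (7.98 to 9.21). For GLA both LSD1i libraries (55.9 and 48.9 RPKM) lay below both vehicle libraries (62.3 and 56.2 RPKM), at -0.18 ± 0.12 with no call.

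Single pairs are given as a description without p-values, since each holds 1 library per agent. A member with a mean of at least 2 CPM in the pair was counted as apart at a ratio of at least 1.5 whose exact binomial 95% interval, which covers counting error only, excluded equality. At 6 h in KASUMI-1 0 of 34 members were apart, where 3.78% of all genes were higher and 1.71% lower. At 72 h 8 of 34 were higher (ASAH1, FUCA1, LAMP2, NPC2, SCARB2, TFEB, TPP1 and WIPI1), where 11.6% of all genes were, and 0 were lower (8.19%). In THP-1 6 of 35 were higher at 24 h (CLN3, FUCA1, MAN2B1, MITF, PSAP and TFEB; 6.56% of all genes) and 9 of 36 at 72 h (those and ASAH1, NPC2 and WIPI1; 7.18%), with 0 lower at either time (2.49% and 5.54%). At 2-fold 0 members were higher in KASUMI-1 at 6 h (0.785% of all genes), 1 at 72 h (WIPI1; 3.36%), 3 in THP-1 at 24 h (FUCA1, MITF and TFEB; 2.77%) and 2 at 72 h (FUCA1 and MITF; 3.25%). None was 2-fold lower in any pair, where 0.0274%, 1.02%, 0.418% and 1.35% of all genes were. The 72 h pairs had ASAH1, FUCA1, NPC2, TFEB and WIPI1 in common between the lines. The share of all genes higher in both 72 h pairs was not obtained, so this overlap is a description only. WIPI1 was 2.86-fold higher in KASUMI-1 at 72 h, with an interval of the log2 ratio from 1.22 to 1.84, and 1.71-fold higher in THP-1 at 72 h, with 0.41 to 1.16. In THP-1 at 24 h WIPI1 was under 2 CPM and so not counted, but its reads (50 in vehicle) gave a ratio of 2.08, with 0.58 to 1.61. MITF was 3.01-fold higher in THP-1 at 24 h and 4.95-fold higher at 72 h.

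The third comparison tested the difference of response, THP-1 minus KASUMI-1, in the same fit. MITF (2.22 ± 0.44, adjusted p = 0.00665, edgeR) and PSAP (0.70 ± 0.20, adjusted p = 0.0473, edgeR) responded more in THP-1, where 3.07% of all genes did. No member was called as responding more in KASUMI-1 (2.62% of all genes); at an unadjusted p under 0.05 (21.3% of all genes, both directions) there were 2 (LAMP2 and TPP1), and DESeq2 called 0. Without the 6 h pair of KASUMI-1 these 2 were the only calls (LAMP2 -0.77, adjusted p = 0.0123, and TPP1 -0.87, adjusted p = 0.00267, edgeR), and with no low-count filter TPP1 was called beside 3 members higher in THP-1. The early time was 6 h in KASUMI-1 and 24 h in THP-1, so line and early time cannot be told apart in this contrast. Of the other members MAN2B1 (0.61 ± 0.18, adjusted p = 0.0521), CLN3 (0.73 ± 0.21, 0.0538), TPP1 (-0.68 ± 0.21, 0.0638) and FUCA1 (0.77 ± 0.24, 0.0688) missed the threshold of edgeR's test. For WIPI1, called in both lines, the difference was 0.07 ± 0.37, and for SCARB2 -0.27 ± 0.19. The call of MITF ended when the 6 h pair of KASUMI-1 was left out (2.17, adjusted p = 0.0529, edgeR) or the 72 h pair of THP-1 (1.85, adjusted p = 0.110, edgeR), and that of PSAP when either of these or the 24 h pair of THP-1 was (adjusted p from 0.101 to 0.409, edgeR).

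The last comparison set the lines side by side without inhibitor, over 15456 genes in a fit of the 4 vehicle libraries. These were of 6 and 72 h in KASUMI-1 and of 24 and 72 h in THP-1. Line and early time thus cannot be told apart here either. Of 37 members 15 were higher in THP-1 (30.1% of all genes) and 6 lower (26.4%), so a large share of all genes differed too. All 3 factors were higher in THP-1: TFEB by 3.04 ± 0.27 (8.20-fold, adjusted p = 5.62e-06, edgeR), MITF by 1.70 ± 0.44 and TFE3 by 0.55 ± 0.21 (adjusted p = 0.0432, edgeR). The size for MITF depended on a KASUMI-1 library with 7 reads: it was 2.94 without the 6 h and 1.17 without the 72 h KASUMI-1 library. That of WIPI1 (below) was -1.17 without the 24 h and -2.38 without the 72 h THP-1 library. Of the members that rose with LSD1i in THP-1, PSAP (-1.12 ± 0.16), MAN2B1 (-1.17 ± 0.22) and WIPI1 (-1.69 ± 0.37) started lower in THP-1 than in KASUMI-1, while FUCA1 (0.53 ± 0.20) and CLN3 (1.04 ± 0.21) started higher. HEXA (-0.98 ± 0.18), CTNS (-0.99 ± 0.21) and ULK1 (-0.69 ± 0.23) were also lower in THP-1. TPP1 (1.71 ± 0.23), LAMP2 (1.09 ± 0.22), ACP2 (1.07 ± 0.23), SCARB2 (0.71 ± 0.17) and LIPA (0.59 ± 0.16) were higher. The calls of TFE3 and FUCA1, of the pump subunits ATP6V0D1, ATP6V1C1 and ATP6V1D, and of ULK1 ended when some 1 vehicle library was left out.

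**Figure D3:**
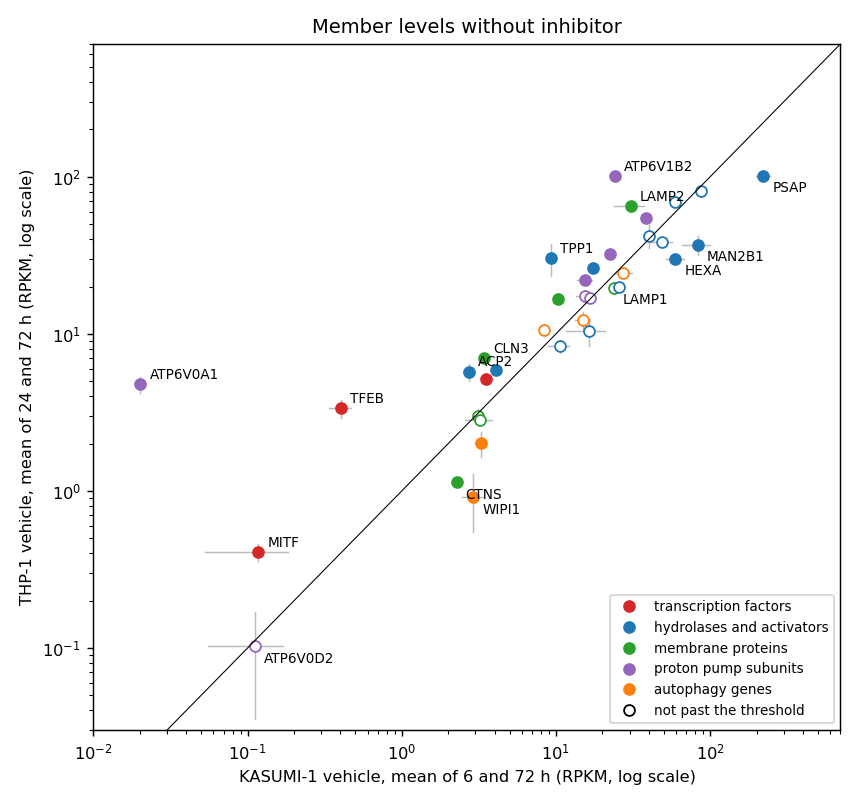
Mean level of the 37 tested members in KASUMI-1 vehicle (x axis) and THP-1 vehicle (y axis), RPKM on log scales, coloured by role; grey bars span the 2 libraries of a line, open circles did not pass the test and the diagonal marks equal levels. ATP6V0A1 and TFEB lie far above the diagonal, and PSAP, MAN2B1, HEXA, CTNS and WIPI1 lie below it.

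Of the pump subunits 5 of 8 were higher in THP-1 (30.1% of all genes) and 0 lower (26.4%) by edgeR's test. DESeq2 also called 0 lower, as did an unadjusted p under 0.05, which 61.3% of all genes reached in either direction. Differences between the lines were thus common among all genes too. ATP6V0A1, one of several genes for the a subunit that anchors V1 to V0 and steers the pump to its membrane, was nearly off in KASUMI-1. It had 3 and 2 reads in KASUMI-1 vehicle and 9 and 5 reads with LSD1i, against 836 and 933 reads in THP-1 vehicle and 856 and 656 reads with LSD1i. All THP-1 libraries were therefore far above all KASUMI-1 libraries, and the vehicle difference was 7.86 ± 0.37 (adjusted p = 6.14e-08, edgeR). ATP6V1B2, the B subunit of most tissues, was at 25.1 and 23.2 RPKM in KASUMI-1 vehicle and 100.2 and 100.6 RPKM in THP-1 vehicle (2.06 ± 0.16). ATP6V0D1 (0.53 ± 0.16), ATP6V1C1 (0.52 ± 0.17) and ATP6V1D (0.52 ± 0.17) differed less. The other a subunit genes, from the list of pump genes outside the members, showed another order. ATP6V0A2 was at 17.9 and 17.7 RPKM in KASUMI-1 vehicle and 7.70 and 7.66 RPKM in THP-1 vehicle (-1.21 ± 0.16). TCIRG1, the a subunit of osteoclasts and immune cells, was at 4.29 and 9.03 RPKM in KASUMI-1 vehicle and 24.8 and 30.0 RPKM in THP-1 vehicle (2.06 ± 0.30). ATP6V0A4, the kidney form, had at most 8 reads. Per length of exon, ATP6V0A2 was thus the highest a subunit gene in each KASUMI-1 library and TCIRG1 in each THP-1 library, with or without LSD1i.

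**Figure D4:**
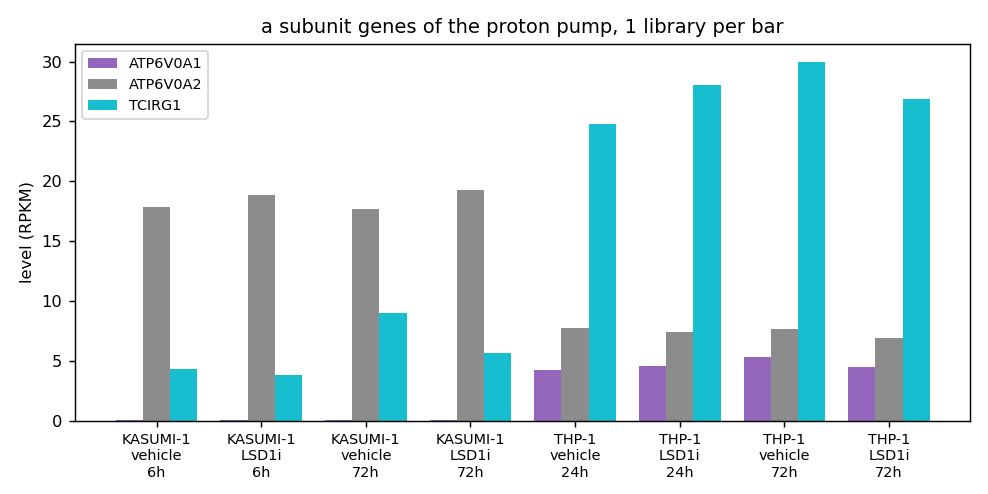
Level (RPKM, linear axis from 0) of 3 genes for the a subunit of the pump in each of the 8 libraries, 1 library per bar. ATP6V0A1 is near 0 in KASUMI-1 and between 4.22 and 5.33 RPKM in THP-1.

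Other genes of the pathway were listed by function, also with earlier results of these data known. There were 168 genes, of which 167 were in the table and 163 were tested. With the inhibitor 17 were called higher and 3 lower in THP-1, as were 9 and 6 in KASUMI-1, against the background shares above. By group, 8 of 33 other hydrolases rose and 0 fell in THP-1, and 3 rose and 1 fell in KASUMI-1. Of 15 other pump subunits 0 rose and 0 fell in THP-1, and 0 rose and 1 fell (ATP6V0B, a proteolipid of the V0 ring) in KASUMI-1. Among 52 other autophagy genes 4 were called higher and 0 lower in THP-1, against 4 and 2 in KASUMI-1. Of all genes tested 6.51% rose and 2.85% fell in THP-1, and 7.02% rose and 5.09% fell in KASUMI-1. The counts of other autophagy genes and pump subunits in both lines, and of other hydrolases in KASUMI-1, were thus close to the background.

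Some of the changes outside the members were larger than those of the members. The acid nuclease DNASE2 was at 38.2 and 18.0 CPM in THP-1 vehicle and 154 and 86.0 CPM with LSD1i, a rise of 2.13 ± 0.13 (adjusted p = 5.57e-09, edgeR), and the difference from KASUMI-1 was 1.92 ± 0.19 (adjusted p = 1.25e-05, edgeR). IFI30, the thiol reductase of antigen processing, rose by 2.74 ± 0.27, from 26.1 and 4.92 to 99.2 and 63.8 CPM. The asparaginyl endopeptidase LGMN rose by 2.07 ± 0.25 and the peptide transporter SLC15A3 by 1.89 ± 0.24. The sulfamidase SGSH went from 0.0420 and 0.119 to 2.01 and 1.16 CPM, so few reads that its value (4.27 ± 0.50) is rough. The falls in THP-1 were those of the lipid transporter ABCA2 (-0.98 ± 0.18), the calcium channel MCOLN2 (-0.53 ± 0.12) and RRAGD (-0.51 ± 0.13), a Rag GTPase that recruits mTOR to the lysosome. Each of the 5 rises named passed when either THP-1 pair was left out, but their sizes moved: IFI30 was 3.67 without the 24 h and 1.91 without the 72 h pair, SLC15A3 1.25 and 2.49, and SGSH 3.23 and 5.46. The falls held less well: ABCA2 missed the threshold once the 72 h pair was left out (-0.61, adjusted p = 0.327, edgeR), MCOLN2 without the 24 h or the 72 h pair (adjusted p = 0.0704 and 0.339, edgeR), and RRAGD likewise (0.0842 and 0.448).

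In KASUMI-1 TFEC, the remaining member of the MITF family, rose by 1.17 ± 0.14 (adjusted p = 6.95e-05, edgeR), from 43.4 and 22.5 CPM in vehicle to 91.5 and 54.5 CPM with LSD1i. In THP-1 it was at 110 to 161 CPM with no call (0.06 ± 0.14), and the difference of response, -1.12 ± 0.20, passed (adjusted p = 0.00317, edgeR), opposite in sign to that of MITF. It did not pass without the 24 h pair of THP-1 (-0.86, adjusted p = 0.0984, edgeR) or with no pair term (adjusted p = 0.376, edgeR). TP53INP1, a p53-induced protein of autophagy, rose by 1.67 ± 0.24, the mitophagy receptor BNIP3L by 0.95 ± 0.15, the iduronidase IDUA by 1.07 ± 0.27 and the acid amidase NAAA by 0.75 ± 0.18. BNIP3L and NAAA also rose in THP-1 (0.61 ± 0.15 and 1.07 ± 0.17). BNIP3 fell by 0.68 on the log2 scale (SE 0.14), HYAL2, a hyaluronidase, by 0.60 and LAMTOR4, LAMTOR2 (both of the Ragulator complex that holds the Rag GTPases) and ATG101, a partner of ULK1, by 0.64, 0.46 and 0.52. Without the 72 h pair TFEC and TP53INP1 kept their calls and the other 8 did not.

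Of the 9 called members with a matched start-site window 1 (CLN3) held CACGTG upstream, and of the 18 that were tested and not called 5 did (LAMP1, GAA, NEU1, MCOLN1 and ATP6V0D1). The members with the longest form, GAA and MCOLN1, had THP-1 values of 0.17 ± 0.14 and 0.00 ± 0.20 and KASUMI-1 values of -0.10 ± 0.14 and -0.12 ± 0.20. LAMP1, with 5 copies, had 0.01 ± 0.13 and -0.04 ± 0.13.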

How the data were processed

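The authors deposited 1 table of whole-number read counts per gene for 8 libraries, with no normalization. featureCounts 1.5.2 made them on Ensembl release 54 models of NCBI build 36, per the file headers. Per the submitters' processing notes, TopHat2 2.0.10, FastQC 0.10.0, Subread and edgeR were used, with hg18. The recorded counting command has neither a strand setting nor one for reads with several mapping places, so overlapping antisense genes cannot be separated.

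Groups came from the labels. Counts were fitted with edgeR 4.0.16 (R 4.3.3): TMM, filterByExpr with a minimum count of 10, 1 term for each of the 4 pairs of line and time, 1 LSD1i coefficient per line, 2 residual degrees of freedom, Benjamini-Hochberg adjustment at 0.05. Vehicle libraries had their own fit with 2 residual degrees of freedom. The test therefore borrows most of its spread from other genes (common dispersion 0.0115, median prior degrees of freedom 15.6). Single-pair ratios took CPM on TMM-scaled sizes, with 2 as prior count, and carry no p-value. The code was tested on simulated counts.

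Lists were those of the members, 5 lists of other pathway genes, and markers of KASUMI-1, THP-1, monocytes or macrophages, granulocytes and other cells. The members and lists were chosen with earlier results of these data known. Of the granulocyte markers 3 of 7 tested fell in THP-1 and 1 in KASUMI-1, and 0 rose. Of 5 tested markers of other cells PECAM1 rose in THP-1 and ALB in KASUMI-1. Genes named were those called, 15 fixed members (of which GABARAPL1 has no values here), and the 5 largest called rises and falls per line of other pathway genes. Alternatives were RLE factors, other filters, DESeq2 1.42.0, no pair term, leaving out each pair, and, added after seeing the data, leaving out each vehicle library. Some older names were matched to current symbols through RefSeq synonyms (C7orf59 is LAMTOR4, ROBLD3 LAMTOR2, C12orf44 ATG101).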

Additional observations from a re-analysis of the deposited data

Results flagged for a closer look

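The response to LSD1i differed between the lines in the test of the difference itself for 2 members. For MITF the THP-1 response exceeded that of KASUMI-1, with a log2 difference of 2.22 ± 0.44 (edgeR, adjusted p = 0.00665). In THP-1 both LSD1i libraries (1.40 and 1.81 RPKM) lay above both vehicle libraries (0.459 and 0.358 RPKM), and in KASUMI-1 each LSD1i library (0.151 and 0.0454 RPKM) lay slightly below its vehicle library (0.182 and 0.0528 RPKM). The KASUMI-1 values rest on 7 to 41 reads per library. For PSAP the difference was 0.70 ± 0.20 (adjusted p = 0.0473, edgeR), from 0.83 in THP-1 and 0.13 in KASUMI-1, with the KASUMI-1 levels (199 to 287 RPKM) above the THP-1 levels (100 to 195 RPKM) throughout. The call of MITF was kept under 6 of 9 alternatives and that of PSAP under 4 of 9.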

How the results depend on the processing

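No called member changed direction under any alternative run. In KASUMI-1 the 3 calls became 6 with no filter, 1 with a filter of 1 CPM, 1 with DESeq2, 0 with no pair term, and 0 to 8 when 1 pair was left out (0 without the KASUMI-1 72 h pair). In THP-1 the 9 calls became 1 with no pair term and 2 to 11 when 1 pair was left out. The 2 calls of the difference between lines became 4 with RLE factors, 4 with no filter, 1 with a filter of 1 CPM, 0 with no pair term and 0 to 4 when 1 pair was left out. All of these were higher in THP-1 except 1 with no filter (TPP1) and both without the KASUMI-1 6 h pair (LAMP2 and TPP1), so the direction of the calls depends on that pair. Vehicle calls numbered 15 to 23 against 21. At 2-fold in place of 1.5-fold the single pairs held 1 member in KASUMI-1 at 72 h, 3 in THP-1 at 24 h and 2 in THP-1 at 72 h. FUCA1 kept its THP-1 call under 9 of 9 alternatives and MITF under 8 of 9 (adjusted p = 0.0509, edgeR, with no pair term), whereas ASAH1 kept it under 3 and TPP1 its KASUMI-1 call under 2. Among members not called, the sign changed under some alternative for 17 of 34 in KASUMI-1 and 13 of 28 in THP-1, so their directions are not reported as changes. A fit that leaves out a pair assumes that the lone pair of a line varies like the other line. Read counts were low for MITF in KASUMI-1, ATP6V0D2 and ACP5.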

Other observations

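Further pump genes differed between the lines without inhibitor; they were chosen after their values were seen. ATP6V0E2, one of the genes for the e subunit of the V0 ring, was at 11.3 and 13.6 RPKM in KASUMI-1 vehicle (6 and 72 h) and 4.62 and 4.17 RPKM in THP-1 vehicle (24 and 72 h), a difference of -1.49 ± 0.19 (adjusted p = 7.90e-05, edgeR's quasi-likelihood test). ATP6V0E, the older name of the other e subunit gene, went the other way, from 154 and 134 RPKM to 250.03 and 229 RPKM (0.74 ± 0.16, adjusted p = 0.00306, edgeR). ATP6V1B1, the B subunit of kidney and inner ear, had 0 and 1 reads in KASUMI-1 vehicle and 73 and 102 reads in THP-1 vehicle. The proteolipid genes ATP6V0B (0.68 ± 0.16) and ATP6V0C (1.06 ± 0.19) were higher in THP-1. ATP6V1F, ATP6V1G1, ATP6AP1 and ATP6AP2 did not pass the test between the lines, with values from -0.23 to 0.19.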
